A study of Arabidopsis thaliana with 24 samples.

Results

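Arabidopsis genes known here only by a locus code were read by 7837 probe sets, the units of measurement of the array. Of these, 81, each of another gene, had lower transcript levels in germinating seeds by both of the following averages. The first compared the pickle mutant (pkl) with wild type over both treatments, the second the growth retardant uniconazole with solvent over both genotypes. Both had to be -0.4 or less in log2(signal + 16), and a member need not be lower in every single comparison. Columbia wild type and pkl were each germinated under continuous light on medium with 0.01% methanol as solvent, or with 10 nM uniconazole in the same solvent. Each of the 4 groups, namely wild type in solvent, pkl in solvent, wild type in uniconazole and pkl in uniconazole, held 6 Affymetrix ATH1 arrays that the submitters call biological replicates. The labels name neither the pkl allele nor the age of the seeds at harvest, so a difference in developmental stage between groups cannot be told apart from a direct effect. Whole seeds were extracted, and fewer cells of a type and less RNA per cell cannot be told apart in such material.

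PICKLE is a chromatin remodelling factor of the CHD3 type, best known for keeping embryonic genes silent once germination begins. Uniconazole blocks an early oxidation step in gibberellin synthesis, and gibberellin is the hormone that promotes germination and cell expansion in seeds. Roots of pkl seedlings can keep embryonic traits, and inhibitors of gibberellin synthesis are known to make that phenotype more frequent.

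The members were chosen from these same values. A probe set is a group of short oligonucleotides that reports 1 transcript, and probe sets annotated to 1 gene without a symbol entered if their highest group mean signal was at least 110. On group means of log2(signal + 16), the mean pkl difference is the average of pkl minus wild type in solvent and in uniconazole, and the mean uniconazole difference is the average of uniconazole minus solvent in wild type and in pkl. Both had to be -0.4 or less. AT4G14090, AT4G36700 and AT2G43860 were set aside by the same rule. The differences that chose the genes are therefore given below as a description, without a test.

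Eligible genes are counted here and below by probe set, so a gene with a second eligible probe set is counted again. Of the 7837 eligible locus-only entries, 307 met the limit on the pkl difference (3.92%) and 444 that on the uniconazole difference (5.67%). The 81 members made up 26.4% of the former and 18.2% of the latter, and 1.03% of all eligible genes. Passing both limits upwards were 200 genes. A further 30 were lower in pkl and higher with uniconazole, and 44 the reverse, by the same size. Under the same limits 20 of 1245 eligible genes with a symbol were found (1.61%).

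**Figure D1:**
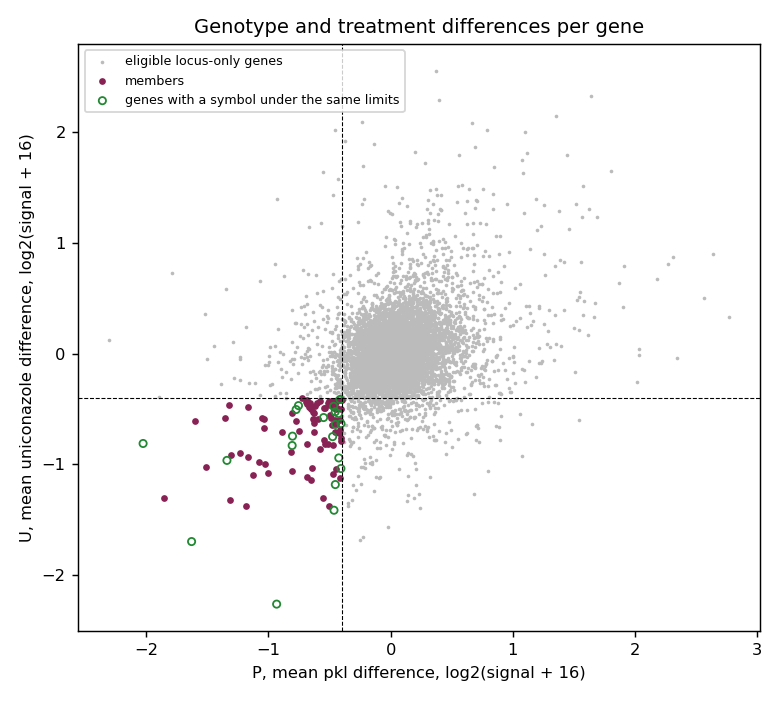
Each point is a probe set, with its mean pkl difference (x axis) and its mean uniconazole difference (y axis), both in log2(signal + 16). Grey points are the 7837 of eligible locus-only genes, filled points the 81 members and open circles the 20 of genes with a symbol. Dashed lines mark -0.4, and the members fill the lower left corner that defines them.

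The reference tables describe few of these genes. All 81 were found in the RefSeq gene table of assembly TAIR10.1, where 79 encode proteins and 2, AT2G05560 and AT4G20500, are annotated as pseudogenes. Both pseudogenes were read by probe sets of a type that can match related transcripts, so their signals cannot be assigned to the pseudogene alone. Descriptive synonyms existed for 3 members. AT3G53250 carries the name SAUR57, of the small auxin upregulated RNA family, AT1G08590 the name PXY-like1 (PXL1), and AT2G26690 that of a member of the NRT1/PTR transporter family, NPF6.2. AT1G08590 had 1656 ± 143 in wild type, 1221 ± 122 in pkl, 1089 ± 199 in treated wild type and 759 ± 144 in treated pkl (SD, n = 6). AT2G26690 was dimmer, with 135 ± 43.3, 108 ± 39.5, 100.1 ± 22 and 66.5 ± 43.4 in that order. The remaining members are named here by locus code with no role attached.

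The usual order was wild type in solvent highest and pkl in uniconazole lowest. That held for 79 of 81 members, and for 15.5% of all 22746 probe sets tested. Relative to wild type in solvent, the median member had 70.0% of the signal in pkl, 68.1% in wild type with uniconazole and 40.6% in pkl with uniconazole. The lowest and highest members spanned 27.5% to 115.4% in pkl, 31.7% to 111.0% in treated wild type, and 9.7% to 56.6% in treated pkl. In treated pkl, 67 members were under 50% of wild type and 14 under 25%. All 6 treated pkl arrays lay below the other 18 arrays for 34 members, against 1.29% of all probe sets. All 6 untreated wild-type arrays lay above the other 18 for 24 members, against 0.457%.

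**Figure D2:**
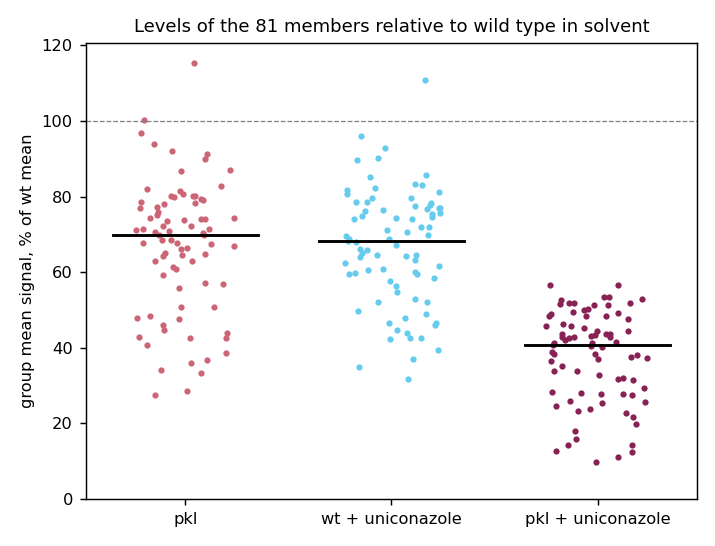
Group mean signal of each of the 81 members as a percentage of its mean in wild type with solvent (y axis) for the 3 other groups (x axis); points are genes and black lines medians. The medians are 70.0% in pkl, 68.1% in wild type with uniconazole and 40.6% in pkl with uniconazole.

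AT1G29080 had the lowest sum of both differences. On the 6 arrays of each solvent group, AT1G29080 had signals of 3219.7 to 4482 (median 4079) in wild type and 1138 to 1946 (median 1354) in pkl. With uniconazole it had 1461 to 3338 (median 1939) in wild type and 253 to 637 (median 437) in pkl. No array of treated pkl reached the lowest array of any other group, while treated wild type overlapped both untreated groups. Its mean pkl difference was -1.86 and its mean uniconazole difference -1.31 on the log2 scale. Wild type in solvent had 4032 ± 448 and treated pkl 449 ± 127 (SD, n = 6), a ratio of 8.98.

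AT5G46940 had a mean difference of -1.18 for pkl and -1.38 for uniconazole. AT5G46940 had signals of 966 to 1446 (median 1115) in wild type and 345 to 644 (median 517) in pkl with solvent. Under uniconazole they were 274 to 624 (median 417) and 161 to 211 (median 169). The untreated wild-type arrays were all highest and the treated pkl arrays all lowest, while the groups with 1 of the changes overlapped. Its mean in wild type with solvent was 6.34 times that in treated pkl.

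AT3G53250 (SAUR57) and AT1G12080 were dimmer. AT3G53250 had signals of 130.2 to 327 (median 235) in wild type and 46.3 to 148 (median 74.2) in pkl with solvent. The treated arrays gave 54.7 to 114 (median 67.6) and 13.1 to 31.1 (median 20.9). All 6 treated pkl arrays lay below the bacterial control level of 54.9, the 95th percentile of 27 probe sets for bacterial transcripts, so wild type in solvent was at least 4.09-fold higher than treated pkl. AT1G12080 had signals of 188 to 358 (median 242) in wild type and 48.5 to 93 (median 77.3) in pkl with solvent. In uniconazole the same groups had 82.7 to 148 (median 101) and 10.5 to 45.3 (median 34.9). Here too every treated pkl array was under 54.9, and the ratio is at least 4.69-fold.

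AT3G05600 had 733 ± 101 in wild type, 312 ± 30.2 in pkl, 413 ± 36.2 in treated wild type and 145 ± 29.8 in treated pkl (SD, n = 6). AT1G72070 had 2075 ± 179, 1159.6 ± 113, 1097 ± 120.3 and 482 ± 90.6 in the same order. AT5G48900 had 1144 ± 126, 581 ± 88.2, 596 ± 98.8 and 273 ± 62.3. In these 3 genes untreated wild type stood above all other arrays and treated pkl below them. AT2G04570, with means of 577 ± 114, 247 ± 104, 282 ± 74.1 and 125 ± 37.7, varied more between arrays, and its treated pkl arrays overlapped those of untreated pkl and of treated wild type.

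The other 4 of the 12 lowest genes, AT1G52000, AT3G15650, AT1G73050 and AT5G03120, had wild-type means between 126.0 and 162.7 and treated pkl means between 17.9 and 29.1, under the bacterial control level. Their ratios are therefore bounds, of at least 2.75-fold, at least 2.82-fold, at least 2.30-fold and at least 2.97-fold. In all, 12 members had a treated pkl mean at or under that level, 1 an untreated pkl mean, and 0 a wild-type mean with or without uniconazole.

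**Figure D3:**
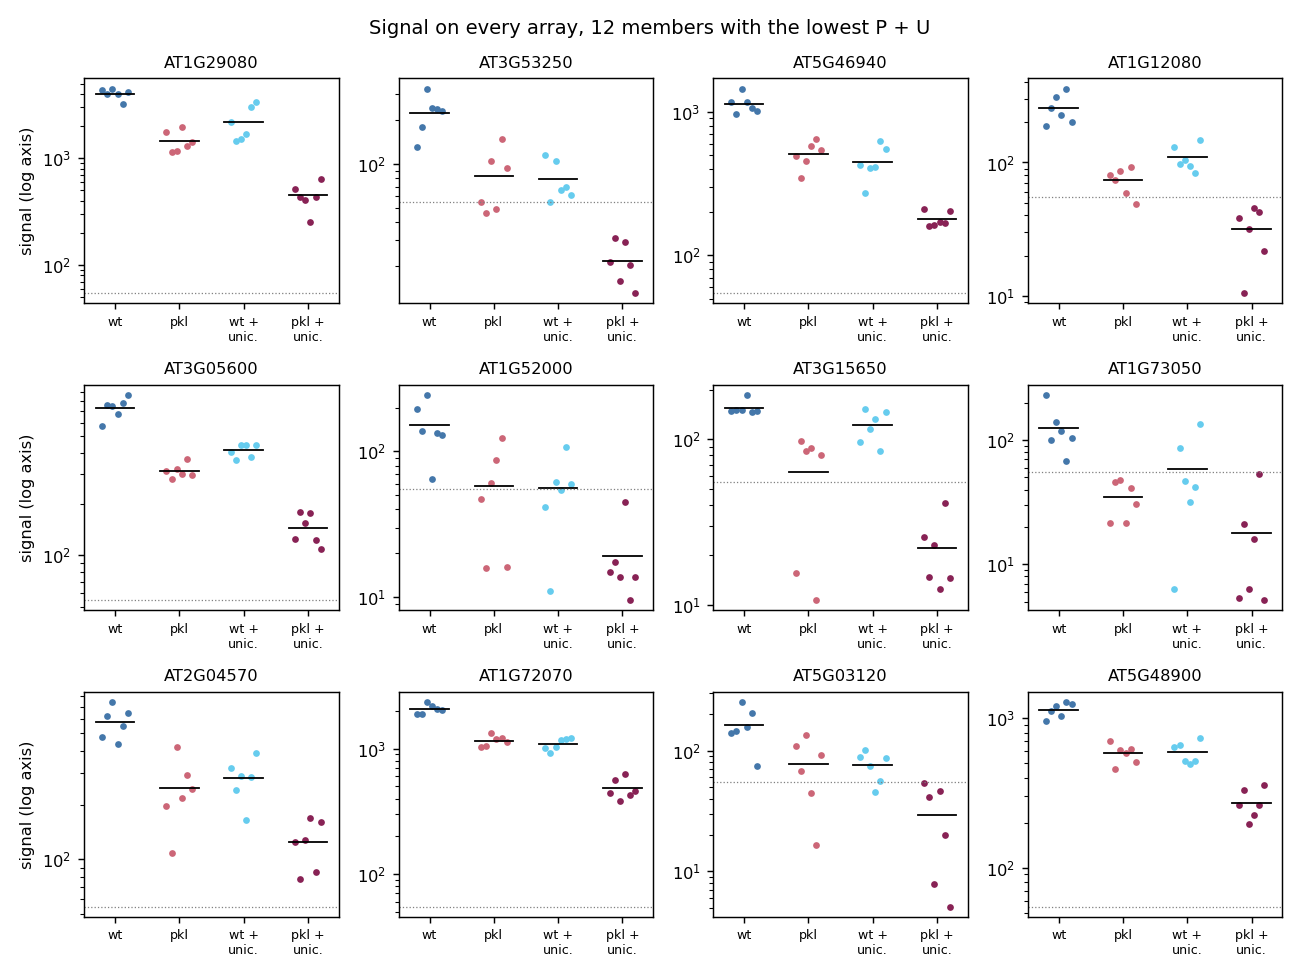
Signal on every array (y axis, log scale) in the 4 groups (x axis) for the 12 members with the lowest sum of both differences; points are arrays, black lines group means, and the dotted line the bacterial control level of 54.9. Treated pkl has the lowest mean in each of the 12 panels.

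The 4 brightest members had ratios of wild type in solvent to treated pkl of 2.21 (AT4G29020), 3.65 (AT4G18970), 1.89 (AT4G01700) and 1.93 (AT5G55050). AT4G29020 had signals of 18980.5 to 22513 (median 19689.5) in wild type and 13894 to 15412 (median 14734) in pkl with solvent. With uniconazole the values were 15379 to 17628 (median 16144) and 7428 to 10427 (median 9385). For this gene the 4 groups did not overlap except for pkl in solvent with treated wild type, whose ranges met narrowly. AT4G18970 had signals of 6887 to 9445 (median 8009) in wild type and 4579.5 to 6714 (median 5777) in pkl with solvent. Under uniconazole they were 4238 to 5434 (median 4506) and 1749.7 to 2684 (median 2265). Treated pkl again lay below every other array. AT4G01700 had 12457 ± 1679 in untreated wild type and 6574 ± 1079 in treated pkl (SD, n = 6), and AT5G55050 had 5538 ± 555 and 2867 ± 493. Wild-type means of the 81 members ran from 103.2 to 20268 with a median of 619, against a median of 556 over the eligible genes. Of the members, 31 had at least 1000 and 19 less than 200.

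At the limits, AT2G03980 (pkl -0.40, uniconazole -0.42), AT2G05560 (-0.40 and -0.79) and AT3G53650 (-0.40 and -0.50) were just inside. Just outside were AT3G55690 (-0.85 and -0.40), AT5G37790 (-0.58 and -0.40) and AT2G19460 (-0.40 and -0.57). AT2G03980 had 2806 ± 126 in wild type, 2304 ± 72.1 in pkl, 2278 ± 139 in treated wild type and 1585 ± 116 in treated pkl (SD, n = 6), and only untreated pkl and treated wild type overlapped. In AT2G05560 the arrays of all 4 groups overlapped.

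The members differed in the balance of the 2 changes. The pkl difference was the lower one in 44 members and the uniconazole difference in 37, and in 29 they lay within 0.1 of each other. By more than 0.3, pkl was lower in 12 members and uniconazole in 11. Between untreated pkl and treated wild type the arrays overlapped in 76 members. The share over all probe sets was not counted, so nothing is read from that number. The mean of untreated pkl was below that of treated wild type in 40 members, beside 48% of all probe sets. The genes named next were picked after their values were seen, as the most uneven ones. AT3G15650 had the widest gap, with a pkl difference of -1.60 and a uniconazole difference of -0.61. It was near background, with treated pkl arrays of 12.4 to 41.1, all under the bacterial control level of 54.9. Its untreated pkl arrays ran from 10.7 to 97.6. AT4G11210 had -1.32 and -0.46, AT3G27400 -1.36 and -0.58, and AT1G68500 -1.16 and -0.48. AT3G27400 had 1046 ± 145 in wild type, 349.9 ± 56.4 in pkl, 624 ± 147 in treated wild type and 266 ± 70 in treated pkl (SD, n = 6). On the other side, AT1G14730 had -0.50 for pkl and -1.38 for uniconazole, AT3G48460 -0.55 and -1.31, AT5G45950 -0.42 and -1.13, and AT3G07010 -0.47 and -1.09. AT1G14730 was also near background, with a treated pkl mean of 45.3 and treated wild-type arrays of 10.8 to 110.2. AT3G48460 had signals of 6000.1 to 6858 (median 6627) in wild type and 4870.3 to 5531 (median 5254) in pkl with solvent. The treated arrays gave 2523 to 3591 (median 3216) and 1413 to 2186 (median 1881). The 4 groups of AT3G48460 did not overlap at all, in the order wild type, pkl, treated wild type, treated pkl.

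**Figure D4:**
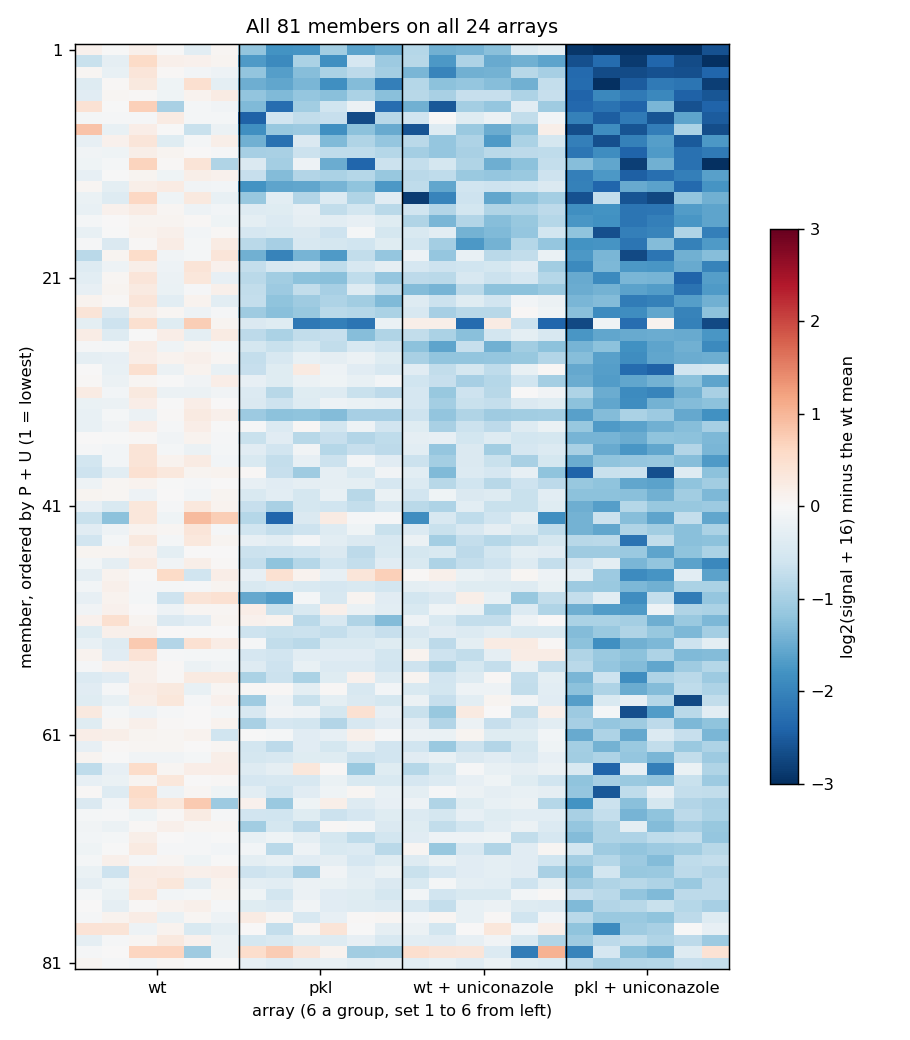
Colour shows log2(signal + 16) minus the mean of wild type in solvent for the 81 members (rows, lowest sum of differences at the top) on the 24 arrays (columns, 6 a group); the scale ends at -3 and 3. The block of treated pkl is the darkest blue in most rows, and rows near the bottom are pale in the 2 middle blocks.

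Counts of members past the test in each contrast follow from the rule and are listed for completeness. All 4 groups entered 1 limma fit over 22746 probe sets, with Benjamini-Hochberg adjustment within a contrast and a threshold of 0.05. In solvent 48 members were lower in pkl than in wild type, beside 4.97% of all probe sets, and in uniconazole 66, beside 8.69%. With uniconazole 54 members were lower in wild type, beside 7.43%, and 65 in pkl, beside 10.6%. Arrays of the groups did not overlap for 35, 41, 33 and 45 members in these contrasts, beside 2.58%, 4.05%, 3.14% and 6% of all probe sets.

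The interaction asked whether the pkl difference had another size in uniconazole than in solvent. It is the pkl difference in uniconazole minus that in solvent, computed from the same 4 group means that chose the members. It would be independent of both differences only if the groups had equal spread. The median SD of the members in log2(signal + 16) was 0.21 in wild type, 0.22 in pkl, 0.26 in treated wild type and 0.29 in treated pkl, and treated pkl had the largest SD in 41 members. From each member's own spread, the replicate error of the interaction had a median correlation of 0.32 with that of the pkl difference and 0.13 with that of the uniconazole difference. The interaction and its p-values are therefore a description of the chosen genes, and nothing is read from the counts. A value under 0 means that treated pkl was lower than the single changes add up to on the log2 scale. In the fit, 0 members were lower and 0 higher in limma at an adjusted p under 0.05, beside 0.0703% of all probe sets in each direction. At an unadjusted p under 0.05, 20 members were under 0, beside 3.63% of all probe sets, and 1 was above 0, beside 4.05%. The SE of a member's interaction ran from 0.07 to 0.77 with a median of 0.23.

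The median interaction of the members was -0.21, with a lower quartile of -0.42, against 0.02 over all probe sets and 0.01 over the eligible genes. It was under 0 in 62 of 81 members, beside 46.8% of all probe sets. Among the 69 members with a treated pkl mean above the bacterial control level, 56 were under 0 (median -0.23). Among the 12 at or under that level the count was 6 (median -0.04). Of 109 other probe sets within the same limits, 92 were under 0 (median -0.26). Its sign also belongs to the log scale, since on linear signals 37 of 81 members were under 0. The share of all probe sets under 0 on linear signals was not counted.

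The smallest adjusted p belonged to AT4G16230, which was singled out after its values were seen. AT4G16230 had signals of 2716 to 3563 (median 3117) in wild type and 2408 to 2936 (median 2705) in pkl with solvent. In uniconazole the same groups had 1525 to 2050.0 (median 1798) and 962 to 1303 (median 1061). Uniconazole separated the groups more than the genotype did, and the lowest treated wild-type array stood above the highest treated pkl array. Its interaction was -0.51 ± 0.12 (SE, limma adjusted p = 0.083). Without array 5 of treated pkl it was -0.56 with an adjusted p of 0.0407, and with the 3′/5′ ratio of actin as a covariate, a setting added after the data were seen, -0.53 with 0.041. Over the other settings the adjusted p ran up to 0.186. The largest interaction in size was that of AT2G34140, -1.29 ± 0.36. AT2G34140 had signals of 112 to 273 (median 184) in wild type and 147 to 302 (median 213) in pkl with solvent. With uniconazole the values were 144 to 199 (median 171) and 36.4 to 141 (median 61.5). Untreated pkl was no lower than wild type, and 4 of 6 treated pkl arrays lay below every array of the other groups.

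AT2G38160 had an interaction of -0.80 ± 0.28 and AT5G04310 one of -0.79 ± 0.39 (SE). A second probe set of AT5G04310 had an interaction of -0.91. AT2G38160 had means of 111 ± 22.8, 102 ± 14.2, 94.7 ± 13.1 and 46 ± 20.6 in wild type, pkl, treated wild type and treated pkl (SD, n = 6). Together with AT2G34140, AT3G53650, AT3G49080 and AT2G27950 it formed the 5 members whose untreated pkl and treated wild-type means were both at least 85% of wild type in solvent. These 5 met the limits mainly through treated pkl, where they had between 41.4% and 56.6% of the wild-type level. For AT3G49080 a second, brighter probe set did not show this, with an interaction of -0.07 against -0.76 ± 0.33. AT2G27950 varied widely, from 9.8 to 212 in treated wild type, and its interaction was -0.77 ± 0.64 (SE).

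AT5G51440 was the only member above 0 at an unadjusted p under 0.05, at 0.73 ± 0.19 (SE). AT5G51440 had signals of 554 to 786 (median 651) in wild type and 256 to 321 (median 286) in pkl with solvent. Under uniconazole they were 279.7 to 417 (median 311) and 175 to 333 (median 237). Each single change brought it to 50% of wild type or below, and pkl with uniconazole had 37.5%. The interaction of the brightest members named above was under 0 in each, and among the most strongly lowered genes its sign was mixed. AT4G18970 had -0.58 ± 0.15, AT4G29020 -0.38 ± 0.10 and AT1G29080 -0.75 ± 0.27 (SE). Also under 0 were AT3G15650 (-0.55 ± 0.42), AT1G72070 (-0.34 ± 0.14), AT4G01700 (-0.30 ± 0.16) and AT3G05600 (-0.25 ± 0.17). AT5G48900 (-0.13 ± 0.18), AT5G03120 (-0.11 ± 0.49), AT5G46940 (-0.06 ± 0.22) and AT5G55050 (-0.05 ± 0.23) were less far under it. Above 0 were AT3G53250 (0.03 ± 0.35), AT1G12080 (0.16 ± 0.30), AT2G04570 (0.16 ± 0.33), AT1G52000 (0.32 ± 0.51) and AT1G73050 (0.41 ± 0.50). Of these, all but AT2G04570 had a treated pkl mean under the bacterial control level. So had AT3G15650 and AT5G03120, which were under 0.

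**Figure D5:**
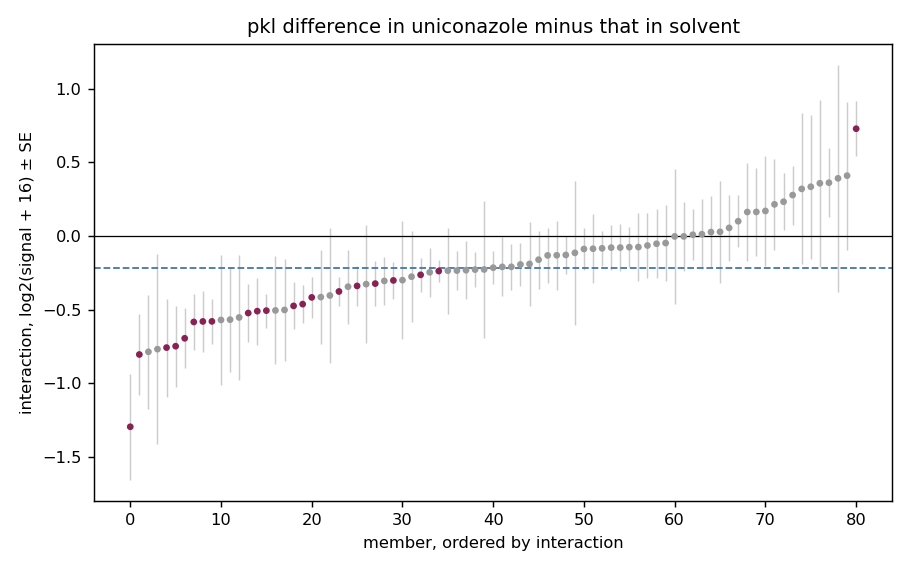
Interaction of each of the 81 members (y axis, log2(signal + 16), with its SE) in ascending order (x axis); dark points have an unadjusted p under 0.05 and the dashed line is the median of -0.21. Of the dark points, 20 lie under 0 and 1 above.

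Position on the chromosomes was not used by the rule. By locus code, 22 members lay on chromosome 1, 17 on 2, 16 on 3, 16 on 4 and 10 on 5. These are 27.2%, 21.0%, 19.8%, 19.8% and 12.3% of the members, and the eligible genes had 26.3%, 14.8%, 20.5%, 14.1% and 24.3% on the same chromosomes. In the RefSeq order of protein-coding genes, 3 pairs of members lay within 10 genes of each other, AT2G34080 with AT2G34140, AT3G10680 with AT3G10720, and AT3G15650 with AT3G15680. No direct neighbour of a member was itself a member. Among 46 neighbouring genes, read by 48 probe sets at the same signal limit, 0 met both limits and 1 that on the pkl difference. On the uniconazole difference 5 met it with at least 1 probe set and 4 with every probe set. Over the 48 probe sets the median differences were 0.05 for pkl and 0.01 for uniconazole.

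Second probe sets existed for 2 members. That of AT5G04310 had means of 147.3 in wild type, 111.9 in pkl, 174.8 in treated wild type and 70.4 in treated pkl, and missed the limit on uniconazole with -0.23. That of AT3G49080 was brighter, from 4630.4 in wild type to 3423 in treated pkl, and missed both limits with -0.24 for pkl and -0.20 for uniconazole. For these genes the 2 probe sets disagree on membership.

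Inside the same limits were 20 genes with a symbol, chosen by the rule from these values. Cell wall and growth genes among them were EXPA9, an expansin gene, XTH16 and XTH19 for xyloglucan-modifying enzymes, GH9C3 for a glycosyl hydrolase, and EXO, a growth-related gene. GH3.1 encodes an auxin-conjugating enzyme, BZIP61 a transcription factor, RALFL34 a secreted signalling peptide and PUB22 a ubiquitin ligase. Enzymes included the serine carboxypeptidase-like scpl44 and scpl48, the glutathione transferases GSTF4 and GSTU25 and the methionine sulfoxide reductase MSRB9. EXPA9 had 12300 ± 1346 in wild type, 8163 ± 866 in pkl, 10079 ± 2137 in treated wild type and 5263 ± 678 in treated pkl (SD, n = 6). scpl48 had 9991 ± 1112, 6611 ± 1113, 6536 ± 1332 and 3217 ± 496. The interaction was under 0 in 15 of the 20, with a median of -0.21. RSU1, SNZ, PIA1, PRA1.B6, P1R3 and GPDHC1 completed the list.

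Within groups the members showed little common variation. After group means were removed, the median correlation over 3240 pairs of members was 0.07 across the 24 arrays, against 0.02 for pairs of eligible genes. The pairs share arrays and scaling, so this is a description only.

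Other measures moved with the groups as well. Markers of germinating seed tissue all had a probe set, with no signal limit applied. These were 8 of 8 seed maturation, 9 of 9 greening, 2 of 2 root hair and 6 of 6 growth and gibberellin response genes. The summed signal of the maturation genes ran from 14333 to 19512 in wild type, 16638 to 20517 in pkl, 26922 to 36123 in treated wild type and 37120 to 47685 in treated pkl. The sums of wild type and pkl in solvent overlapped, and LEA18 and LEA4-5 made up most of each sum. From wild type to pkl in solvent, 4 of the 8 means fell. These were OLEO3 (2068 to 1384), M17 (150 to 116), LEA4-5 (5944 to 5757) and EEL (144 to 133). Those of PAP85 (167 to 1000), M10 (45.8 to 269), LTI30 (283 to 775) and LEA18 (8633 to 9295) rose. In treated pkl 8 of 8 were higher than in untreated wild type. M10 in untreated wild type was the only one of these genes at or under the bacterial control level. The root hair sum was 530 to 1122, 653 to 1917, 770 to 2328 and 1992 to 4854 in the same order. Greening genes summed to 24882 to 29898, 19365 to 23489, 28025 to 40521 and 24579 to 35231. They did not all move together from wild type to pkl in solvent. The means of PRK (1484 to 1730.5) and SBPASE (2790 to 4018) were higher in pkl. Those of the other greening genes were lower, as in PORB (5543 to 2365). The growth and gibberellin response genes summed to 8198 to 9007, 8034 to 9878, 5766 to 7832 and 6936 to 7681, a sum over genes that went opposite ways. In wild type with uniconazole the mean of GID1A went from 753 to 1582, of GID1B from 196 to 640 and of SLY1 from 859 to 1331. EXO went from 2244 to 827, XTH18 from 989.8 to 372 and EXPA8 from 3630.0 to 2108. The part of tissue make-up or stage in the members' levels was not tested. Array median signals were 358.5 to 371.4 in treated pkl and 310.2 to 360.4 over the other groups. The log2 3′/5′ ratio was -0.06 to 0.47 in wild type and 0.17 to 0.48 in treated pkl for the ATH1 actin controls. For GAPDH it was 0.12 to 0.34 and 0.20 to 0.33 in the same order. Ubiquitin gave 0.41 to 0.94 and 0.56 to 0.87. These ranges overlapped, whereas an older pair of actin probe sets gave 2.27 to 2.61 and 2.68 to 2.93 without overlap. With the older ratio as a covariate, 64 of the 81 members met both limits and 17 no longer did. Both differences were under 0 in all 81, with medians of -0.58 for pkl and -0.59 for uniconazole, against -0.62 and -0.61 without it. The part of RNA quality in the members' levels was not tested further.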

How the data were processed

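The authors deposited linear probe set intensities, made with MAS5 per the submitters' processing notes. No version is stated. With 2% of values trimmed at both ends, each array averaged about 1000.1. The table holds 22810 probe sets, and 22746 were tested once 64 controls had been removed. GEO's platform annotation gave 13513 of them 1 gene, 503 several and 8730 none, and symbols came from RefSeq, assembly TAIR10.1. Coordinates are not given because the files name no genome build.

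Group differences were fitted on log2(signal + 16), an offset that understates changes of dim genes, with limma 3.58.1 in R 4.3.3 (group means, eBayes with a variance trend). P-values are two-sided. Arrays were grouped by their titles. The members and lists were chosen with earlier results of these data known. Named members are the 12 lowest by the sum of both differences, the 4 brightest, 3 on each side of the limits and the 3 largest interactions. Planned lists by product name and by promoter motif could not be formed, since the tables hold neither products nor sequences. The interaction was planned as a test but is given as a description, because the groups differ in spread. The fit was tested on simulated data. The number of arrays limits the precision, and p-values measure the spread between these arrays. Offset, scaling, filter, variance model, set number and single arrays were varied.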

Additional observations from a re-analysis of the deposited data

Results flagged for a closer look

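Among 24 named members, 96 groups of 6 values were checked on the log2 scale for an array far from the others, and 5 held one, by Dixon's 95% limit for the gap to the nearest array. Chance alone picks out about 1 in 20 groups. AT1G29080 had 3219.7 on array 5 of wild type in solvent, against 3964.6 to 4481.5 on the others. AT3G15650 had 184.4 on array 4 of that group, against 146.5 to 151.3. AT5G55050 had 6624.6 on array 3, against 5050.4 to 5495.2, and AT2G38160 had 65.9 on array 6, against 113.5 to 128.5. AT1G52000 had 44.8 on array 4 of treated pkl, all 6 values being under the bacterial control level.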

How the results depend on the processing

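The rule itself moved the list most. With limits of -0.3 in place of -0.4 it found 164 genes and with -0.5 it found 38. An offset of 1 gave 96, an offset of 64 gave 54, and arrays scaled to one median gave 120, of which 81, 54 and 81 were among the members. Leaving out 1 array gave 68 to 91 genes, and 54 members stayed under each such omission. That scaling moved the median pkl difference of all probe sets from 0.02 to -0.04 and that of the members from -0.62 to -0.69.

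The count of members past the threshold for the interaction was 0 under 8 of 9 other settings. It was 1, AT4G16230, with the older actin ratio as a covariate. Leaving out 1 array gave 0 to 1, the same gene, without array 5 of treated pkl. The number of members with an interaction under 0 was 57 to 66 without 1 array, and 53 of 66 with the filter on low signal. On linear signal, chosen after seeing the data, it was 37. Their median interaction ran from -0.24 to -0.16 under 9 other settings and from -0.25 to -0.19 without 1 array. The filter on low signal left 66 of 81 members in the fit. Whether the set numbers pair the arrays is not given in the labels. Deviations of same-numbered arrays correlated between -0.19 and 0.44, so not every pair was above 0.1 and the block was not used for the values in the report. The correlations averaged 0.17 between wild type and pkl (0.07 to 0.29), 0.12 between pkl and treated wild type and 0.11 between the treated groups. Other numbers gave -0.03, -0.02 and -0.02 there. Between the wild-type groups the average was 0.08, against -0.02. It was -0.05 between wild type and treated pkl, against 0.01, and -0.02 between the pkl groups, against 0.004. An array matched its own number best in 20 of 72 cases, where 12 would match with uninformative numbers. With the replicate block the interaction count stayed 0, the count under 0 was 62, and members lower in the contrasts of the report numbered 51, 65, 54 and 69. With the actin covariate these were 43, 66, 38 and 57. Shares of all probe sets under these models are not given, so the shifts cannot be read as particular to the members. Dim members are limited by background, since 12 had a treated pkl mean at or under 54.9.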
